A study of Mus musculus with 12 samples.

Results

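The genes of cholesterol and fatty acid metabolism were described in a survey of RNA polymerase II (Pol II) on chromatin from crypt and villus of the mouse duodenum. The set was a named list of 42 genes for the synthesis, uptake, storage and export of sterols and the synthesis of fatty acids, of which the 15 genes with a row in both of the authors' deposited comparison tables could be described, out of 6429 genes in those tables. The assay was ChIP-seq, the sequencing of DNA fragments pulled down with an antibody, here against Pol II, whose signal over a gene shows how much of the enzyme sits there. The labels list 3 Pol II libraries and 1 input library for each of 3 groups of adult duodenal epithelium. The first is villus of wild-type (WT) mice and the second is crypt of WT mice, both given the oil vehicle without tamoxifen. The third is villus of mice labelled Hnf4αγ DKO, a double knockout of the transcription factors HNF4A and HNF4G, given tamoxifen at 50 mg/kg per day on 2 days and killed 1 day after the last injection. Epithelium was released with 3 mM EDTA, for 35 minutes in WT and 25 minutes in mutant mice, and villi were held back by a 70 µm filter that crypts passed. Genotype, tamoxifen and EDTA time therefore cannot be told apart between the villus groups. Strain, age in weeks, the Cre driver and the floxed exons are not given in the sources used here.

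Stem cells and dividing progenitors lie in crypts, and absorptive enterocytes make up most of the villus. Enterocytes take up dietary cholesterol at the brush border through NPC1L1, esterify it with SOAT2 for export in chylomicrons, and return part of it to the lumen through the ABCG5-ABCG8 transporter. Cells also make cholesterol from acetyl-CoA through mevalonate and squalene. The transcription factors SREBP-1 and SREBP-2 switch on this pathway and fatty acid synthesis when membrane sterols fall, and INSIG proteins hold the SREBP escort SCAP in the endoplasmic reticulum when sterols are plentiful. Sterol export genes are known targets of the liver X receptors.

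The 15 genes comprised 5 enzymes of the path from squalene synthesis to cholesterol (Fdft1, Cyp51, Tm7sf2, Msmo1 and Sc5d), 3 regulators (Srebf1, Insig1 and Insig2), 1 fatty acid elongase (Elovl6), 4 genes of sterol uptake, transport and storage (Npc1l1, Npc1, Stard4 and Soat2) and 2 export genes (Abcg5 and Abcg8). All 42 listed genes had promoter and gene body windows in the authors' count tables, which were not used for values because their columns carry no names. The other 27 genes had no row in the comparison tables. They were Hmgcs1, Acat2, Mvk, Pmvk, Mvd, Idi1 and Fdps of the mevalonate path, Sqle, Lss, Lbr, Nsdhl, Hsd17b7, Ebp and Dhcr7 of the later sterol path, Srebf2 and Scap, Acly, Acaca, Acacb, Fasn and Me1 of fatty acid synthesis, the desaturases and elongase Scd1, Scd2, Fads1, Fads2 and Elovl5, and Abca1. How the authors chose the 6429 genes is not given in the sources used here, so counts over the 15 genes describe these genes only and not the pathway.

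Sequences before the gene starts are shown for 1 export pair, the importer, the elongase and 2 sterol enzymes, because these genes moved in different directions between the groups. They come from RefSeq promoters of build GRCm38.p6, in which 11 of the 15 genes were found, and run 5′ to 3′ along the gene up to the base before its annotated start. Capitals mark CCAAT, the NF-Y box, and GGGCGG, an Sp1 box, on either strand (ATTGG and CCGCCC on the other).
Abcg5-Abcg8, the whole stretch between the 2 starts along the Abcg8 strand, chr17:84683012-84683120: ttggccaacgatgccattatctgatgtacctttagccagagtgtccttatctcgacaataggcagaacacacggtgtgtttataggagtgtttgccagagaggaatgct
Npc1l1, minus strand, chr11:6230246-6230495: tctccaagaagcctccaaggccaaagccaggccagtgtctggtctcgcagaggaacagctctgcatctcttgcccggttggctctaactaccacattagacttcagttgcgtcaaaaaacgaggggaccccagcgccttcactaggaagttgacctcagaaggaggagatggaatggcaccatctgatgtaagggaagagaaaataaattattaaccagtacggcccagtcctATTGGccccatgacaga
Elovl6, plus strand, chr3:129532136-129532385: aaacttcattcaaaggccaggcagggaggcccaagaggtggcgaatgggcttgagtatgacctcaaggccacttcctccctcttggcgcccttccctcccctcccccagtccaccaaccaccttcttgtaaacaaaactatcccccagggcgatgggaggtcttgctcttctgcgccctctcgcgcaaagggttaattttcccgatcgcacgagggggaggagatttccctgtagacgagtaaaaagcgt
Cyp51, minus strand, chr5:4104698-4104947: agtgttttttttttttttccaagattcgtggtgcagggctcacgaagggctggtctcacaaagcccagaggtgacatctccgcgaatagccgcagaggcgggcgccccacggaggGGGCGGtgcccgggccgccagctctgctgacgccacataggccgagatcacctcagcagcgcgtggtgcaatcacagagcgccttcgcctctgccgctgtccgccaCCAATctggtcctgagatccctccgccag
Msmo1, minus strand, chr8:64733579-64733828: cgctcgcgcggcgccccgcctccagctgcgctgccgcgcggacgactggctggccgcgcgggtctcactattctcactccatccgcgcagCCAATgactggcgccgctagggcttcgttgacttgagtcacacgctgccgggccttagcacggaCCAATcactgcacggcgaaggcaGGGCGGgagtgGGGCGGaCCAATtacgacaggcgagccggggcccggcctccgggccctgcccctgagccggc

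Both sterol enzymes held each box, whereas the stretches of Elovl6 and of the Abcg5-Abcg8 pair held neither. The stretch of the pair, between its 2 starts, is only 109 bases long, and the others are 250. In the 250 bases before each of these 2 starts, Abcg8 held CCAAT at 114 and 175 bases and Abcg5 held neither box. In Cyp51 the CCAAT box began 29 bases before the start and the GGGCGG box 135 bases before it. Msmo1 held 3 CCAAT boxes, the nearest 55 and the farthest 160 bases before the start, and 2 GGGCGG boxes at 62 and 73 bases. Npc1l1 held 1 CCAAT box, at 17 bases. Over the 250 bases before each start, CCAAT was found in 9 of the 11 genes (all but Elovl6 and Abcg5) in at least 1 of their promoters. Counted by promoter, it was in 10 of the 16 promoters of these genes and in 33.8% of 32851 RefSeq promoters. GGGCGG was found in 7 of the 11 genes, namely Cyp51, Msmo1, Tm7sf2, Sc5d, Insig1, Insig2 and Srebf1, or in 9 of the 16 promoters, and in 32.7% of all promoters. The motifs did not overlap each other in the printed stretches. Of longer motifs, a sterol regulatory element written as TCACNCCAC, HNF4 motifs written as CAAAGTCCA and CAAAGTTCA, and a liver X receptor motif of 2 copies of AGGTCA with any 4 bases between them were searched on both strands. None was in these windows of the 11 genes, against 1.05%, 0.384%, 0.335% and 0.0152% of all promoters. These are matches of letters in a short window, and no match says only that the letters are not in that window.

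The signal is given as size-factor-normalised counts and the change as a log2 fold change ± its standard error (SE). Both come from the authors' deposited DESeq2 tables, in which a gene was called at an adjusted p under 0.05. A positive change means more signal in WT villus. Values per library are not in these tables, so the mean of each group was rebuilt from the deposited mean over all libraries and the 2 deposited changes, assuming groups of equal size and fold changes that were not shrunken. The mean signal of the 15 genes ran from 94.9 to 1185, against a median of 144 over all genes. Signals are not scaled to gene length and were not compared between genes. The labels list 3 libraries per group but do not say that each came from its own mouse, and the number in the authors' fit is not given in the sources used here, so p-values measure only the spread between the libraries fitted. In bulk epithelium, a larger share of a cell type and more signal per cell cannot be told apart.

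The targeted genes check the labels. Hnf4a had more signal in the villi labelled DKO, at -0.54 ± 0.14 in the authors' deposited table (DESeq2 adjusted p 4.84e-04). Hnf4g did likewise, at -1.45 ± 0.22 in the authors' deposited table (DESeq2 adjusted p 7.81e-10). Neither gene was therefore lower where the label names a knockout. Whether the windows counted cover the deleted exons is not given in the sources used here, so these values do not check the deletion. The group is called labelled-DKO villus throughout, and every direction between the villi rests on the labels and table names. The tables' signs were checked from their standard errors, whose difference was fitted to 90.1% of its sum of squares with both signs as named and to at most 51.6% with 1 or both reversed. Enterocyte markers checked the tissue. All 14 markers tested of 16 listed were called higher in WT villus in both of the authors' deposited tables, with median changes of 1.60 over crypt and 1.89 over labelled-DKO villus. Of other cell types, 3 of 10 crypt stem, 1 of 12 proliferation, 6 of 14 secretory, 3 of 10 immune and 0 of 11 mesenchyme markers had rows. Between the villi, 1 crypt stem, 1 proliferation, 2 secretory and 1 immune marker had more signal in labelled-DKO villus and 2 immune markers had more in WT villus in the authors' deposited table.

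The comparison of villus with crypt asks how Pol II differs along the axis of differentiation. At the threshold, 5 of the 15 genes lay toward WT villus and 1 toward crypt in the authors' deposited table. Of all 6429 genes 37.4% passed, 18.6% with more signal in villus and 18.8% with more in crypt. All 5 villus-high genes belong to sterol uptake, transport, storage or export: Npc1l1, Npc1, Soat2, Abcg5 and Abcg8. The crypt-high gene was Fdft1, squalene synthase, the first enzyme committed to sterols. The 3 regulators and Elovl6 were not called. The median change over the 15 genes was 0.09, beside -0.04 over all genes.

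**Figure D1:**
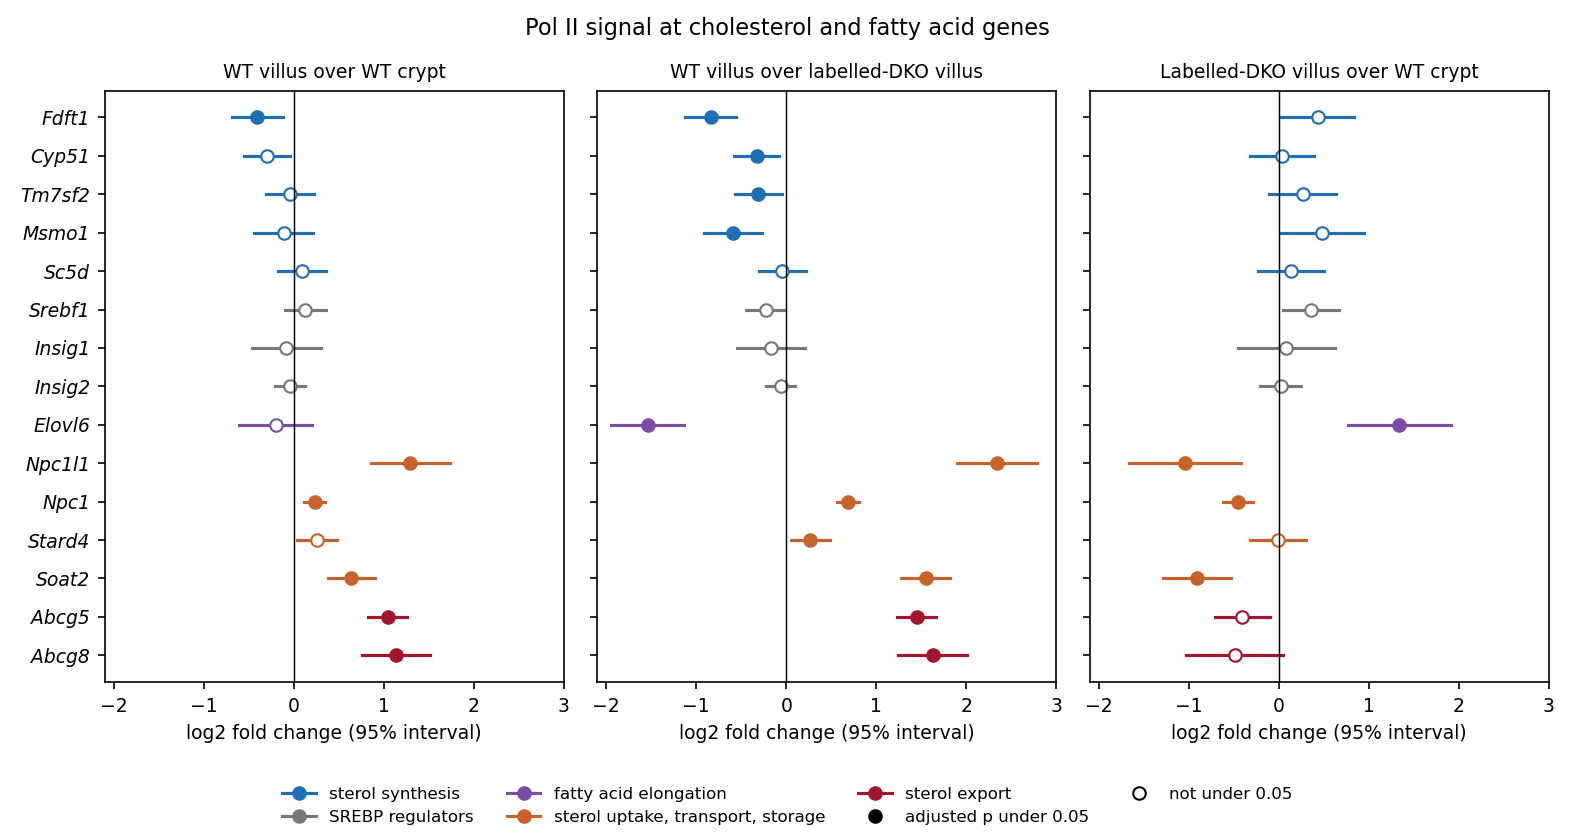
Log2 fold change of Pol II signal (x axis) with its 95% interval (line) for 15 genes (y axis) in 3 comparisons, coloured by role; filled points have an adjusted p under 0.05 and open points do not. In the middle panel the 6 uptake, transport, storage and export genes lie between 0.26 and 2.34, and 4 of the 5 sterol enzymes and Elovl6 are called on the other side of 0.

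Npc1l1, the brush border cholesterol importer and target of ezetimibe, had the largest villus increase of the set. Its rebuilt means were 300 in crypt, 736 in WT villus and 145 in labelled-DKO villus. Villus over crypt came to 1.29 ± 0.22 in the authors' deposited table (DESeq2 adjusted p 1.27e-07), a 2.45-fold higher signal with a 95% interval of 1.81 to 3.32. It ranked 110 of 6429 genes from the top. Npc1l1 lies on chromosome 11 from 6111014 to 6130248 (build mm9, as are all positions of whole genes here), and its windows overlap those of no other gene.

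Abcg5 and Abcg8 encode the partners that form the sterol exporter. For Abcg5 the rebuilt means were 282 in crypt, 583 in WT villus and 213 in labelled-DKO villus. Those of Abcg8 were 242, 532 and 172, in the same order. In both genes the rebuilt mean was thus highest in WT villus and lowest in labelled-DKO villus. The difference of labelled-DKO villus from crypt was not called for either gene with the largest SE, as given below. Abcg5 had a change of villus over crypt of 1.05 ± 0.11 in the authors' deposited table (DESeq2 adjusted p 2.08e-19), or 2.07-fold. Abcg8 had 1.13 ± 0.19 in the authors' deposited table (DESeq2 adjusted p 6.69e-08), or 2.20-fold, so the 2 genes differed by less than their SEs. The pair shares its start region on chromosome 17, where Abcg5 runs from 85057514 to 85082351 on the minus strand and Abcg8 from 85075642 to 85099673 on the plus strand. Their main starts lie 110 bp apart, facing away from each other across the stretch printed above, and the promoter windows of these starts overlap by 91 bp. Abcg8 has 4 transcripts with 2 starts, and the other start, at 85075642, lies within the span of Abcg5. The 2 genes therefore overlap over more than these promoter windows, and the gene-level values do not separate the transcripts. Reads from shared stretches cannot be assigned to 1 of them, and the 2 genes are not independent measurements.

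Soat2, the enzyme that esterifies cholesterol for chylomicrons, had rebuilt means of 130 in crypt, 203 in WT villus and 69.3 in labelled-DKO villus. Its change toward villus was 0.64 ± 0.13 in the authors' deposited table (DESeq2 adjusted p 1.95e-05). Npc1, which moves cholesterol out of lysosomes in most cell types, differed by less. Its rebuilt means were 312, 367 and 228, and in the authors' deposited table its change was 0.23 ± 0.06 (DESeq2 adjusted p 6.70e-04). Soat2 lies on chromosome 15 from 101981006 to 101993867, and Npc1 on chromosome 18 from 12348203 to 12394895, where its windows overlap those of Rmc1. Stard4, a sterol carrier of the cytosol, was not called, at 0.26 ± 0.11 in the authors' deposited table (DESeq2 adjusted p 0.0561). Stard4 passed when changes were centred on the median of all genes (adjusted p 0.0246) or when genes with a mean signal under 100 were left out (adjusted p 0.0466).

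Among the sterol enzymes, Fdft1 had rebuilt means of 249 in crypt, 189 in WT villus and 337 in labelled-DKO villus. Villus over crypt was -0.40 ± 0.15 in the authors' deposited table (DESeq2 adjusted p 0.0197), a 1.32-fold higher signal in crypt. It did not pass at an adjusted p under 0.01 or when tested against changes up to 0.5. Cyp51, lanosterol demethylase, had -0.29 ± 0.13 in the authors' deposited table and was not called (DESeq2 adjusted p 0.0587), but passed, at 0.0488, when only genes with a mean signal of at least 100 were tested. The other 3 enzymes were not called, and in the authors' deposited table their changes ran from -0.11 ± 0.17 for Msmo1 to 0.09 ± 0.14 for Sc5d. Elovl6, which elongates palmitate to stearate, had -0.20 ± 0.21 in the authors' deposited table (DESeq2 adjusted p 0.478). Its 95% interval, from -0.61 to 0.20, leaves room for a 1.52-fold difference toward crypt.

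**Figure D2:**
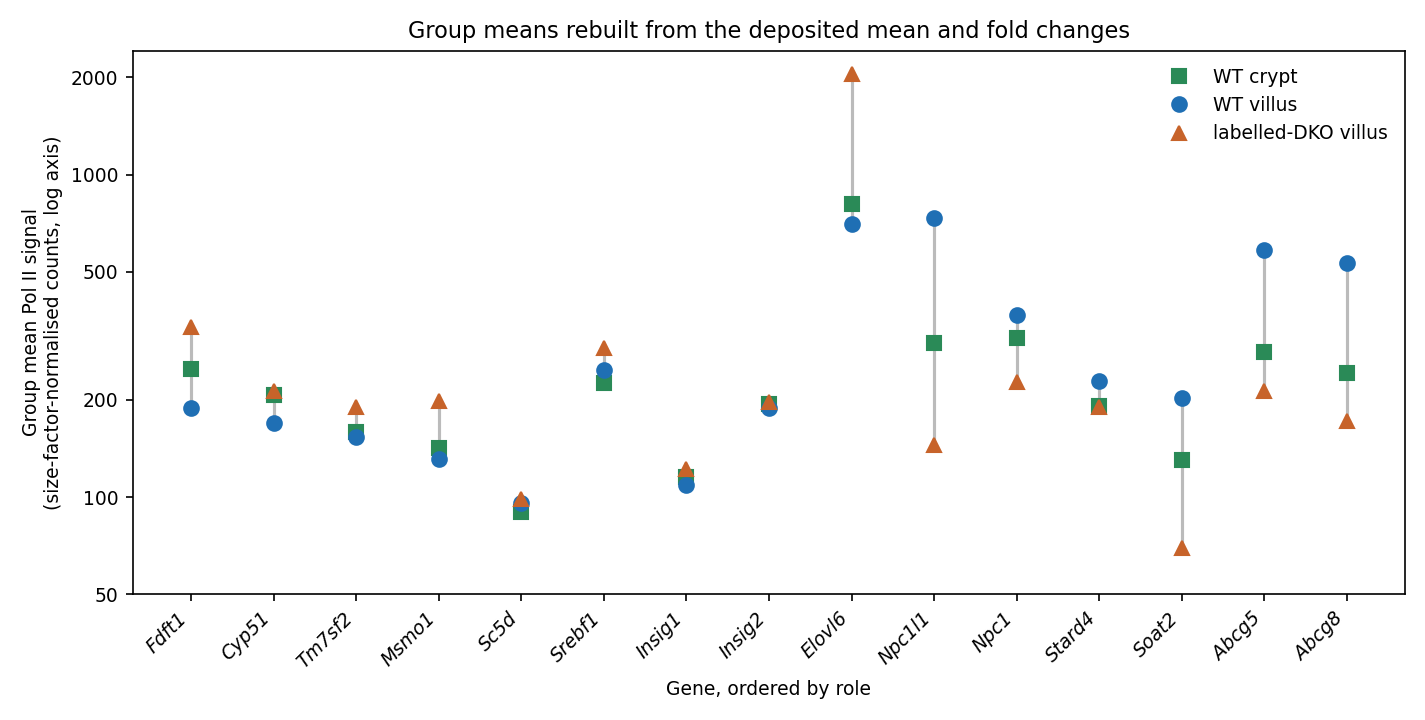
Mean Pol II signal of each group in size-factor-normalised counts (y axis, log scale) for 15 genes (x axis), rebuilt from the deposited mean and fold changes, with no error bars because values per library were not used; grey lines join the groups of a gene. For Npc1l1, Npc1, Soat2, Abcg5 and Abcg8 the mean is highest in WT villus and lowest in labelled-DKO villus. For Abcg5 and Abcg8 the difference of labelled-DKO villus from crypt was not called with the largest SE. Elovl6 stands at 2044 in labelled-DKO villus against 703 in WT villus.

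The villi of the 2 labelled genotypes were compared next. A difference here is one between the labelled groups, with all that differs between them. At the threshold, 6 of the 15 genes lay toward WT villus and 5 toward labelled-DKO villus in the authors' deposited table. Of all genes 51.9% passed, 22.4% toward WT villus and 29.5% toward labelled-DKO villus. The split followed the roles. All 6 genes of uptake, transport, storage and export were higher in WT villus, and 4 of 5 sterol enzymes and the elongase Elovl6 were higher in labelled-DKO villus. The 3 regulators were not called. The 15 genes had a median of -0.06 and all genes one of -0.08. With changes centred on that of all genes, the split of the 15 genes became 6 toward WT villus and 3 toward labelled-DKO villus, and Cyp51 and Tm7sf2 did not pass (adjusted p 0.0967 and 0.142). Centring turned the split of all genes from 1443 toward WT villus and 1895 toward labelled-DKO villus into 1710 and 1422. This comparison uses the same WT villus libraries as that with crypt, so the 2 tables are not independent of each other.

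Npc1l1 again had the largest change toward WT villus. It reached 2.34 ± 0.23 in the authors' deposited table (DESeq2 adjusted p 1.06e-23), a 5.06-fold difference with a 95% interval of 3.72 to 6.87, and rank 56 from the top. Soat2 had 1.55 ± 0.14 in the authors' deposited table (DESeq2 adjusted p 2.13e-27), or 2.93-fold. Abcg8 had 1.63 ± 0.19 (DESeq2 adjusted p 6.77e-16) and its partner Abcg5 had 1.45 ± 0.11 (DESeq2 adjusted p 1.12e-37) in the authors' deposited table, or 3.09-fold and 2.73-fold. Importer, esterifying enzyme and exporter thus all had lower signal in labelled-DKO villus. The same direction was seen for the 14 enterocyte markers above, and the part of enterocyte number in these changes was not tested.

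Npc1 had a smaller change with a small error, of 0.69 ± 0.06 in the authors' deposited table (DESeq2 adjusted p 4.39e-28). Rmc1, whose windows overlap it, had 0.31 ± 0.10 in the authors' deposited table (DESeq2 adjusted p 0.00562), in the same direction. Stard4 had rebuilt means of 192 in crypt, 229 in WT villus and 191 in labelled-DKO villus. Between the villi it had 0.26 ± 0.11 in the authors' deposited table (DESeq2 adjusted p 0.0331), which did not pass at an adjusted p under 0.01. Stard4 is known as an SREBP target, and its direction was that of the transport genes and not of the sterol enzymes. It lies on chromosome 18 from 33358792 to 33373516.

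Elovl6 had the largest change toward labelled-DKO villus. Its rebuilt means were 809 in crypt, 703 in WT villus and 2044 in labelled-DKO villus. Between the villi it had -1.54 ± 0.21 in the authors' deposited table (DESeq2 adjusted p 1.20e-12), a 2.91-fold higher signal in labelled-DKO villus with a 95% interval of 2.20 to 3.85. This placed it 38 from the bottom of the 6429 genes. Elovl6 lies on chromosome 3 from 129235304 to 129341411, and at 106108 bp it is the longest of the 15 genes. Its windows overlap those of Gm35986, which has no row in the tables.

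Of the sterol enzymes, Fdft1 changed most. It had -0.84 ± 0.15 in the authors' deposited table (DESeq2 adjusted p 6.25e-08), a 1.79-fold higher signal in labelled-DKO villus. Its windows on chromosome 14, where it runs from 63763988 to 63798415, overlap those of the protease gene Ctsb, which had -0.40 ± 0.16 in the authors' deposited table (DESeq2 adjusted p 0.0273). Msmo1, an oxidase that acts in the removal of sterol methyl groups, had rebuilt means of 142 in crypt, 131 in WT villus and 199 in labelled-DKO villus. Its change was -0.60 ± 0.16 in the authors' deposited table (DESeq2 adjusted p 9.17e-04), or 1.51-fold toward labelled-DKO villus, and its windows overlap no other gene. It lies on chromosome 8 from 67196920 to 67212375. Labelled-DKO villus had the highest rebuilt mean for both genes, but its difference from crypt was not called with the largest SE, as given below.

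Cyp51 and Tm7sf2, a sterol reductase, changed by less. Cyp51 had -0.33 ± 0.13 in the authors' deposited table (DESeq2 adjusted p 0.0222), with rebuilt means of 208 in crypt, 169 in WT villus and 213 in labelled-DKO villus. Tm7sf2 had -0.31 ± 0.13 in the authors' deposited table (DESeq2 adjusted p 0.0383), with means of 159, 154 and 191 in the same order. Its windows overlap those of Vps51, which was not called, at -0.16 ± 0.10 in the authors' deposited table (DESeq2 adjusted p 0.147). Cyp51 lies on chromosome 5 from 4080674 to 4104697 and Tm7sf2 on chromosome 19 from 6062821 to 6067850. For Cyp51 the crypt mean was thus close to that of labelled-DKO villus, and for Tm7sf2 close to that of WT villus. Sc5d, lathosterol desaturase, had means of 89.9, 95.8 and 98.8 in the same order and lies on chromosome 9 from 42062260 to 42072383. It was not called, at -0.04 ± 0.13 in the authors' deposited table, and its 95% interval of -0.30 to 0.21 leaves room for a 1.23-fold difference toward labelled-DKO villus.

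None of the 3 regulators passed in either of the authors' deposited tables. Srebf1, which encodes SREBP-1, had rebuilt means of 226 in crypt, 248 in WT villus and 290 in labelled-DKO villus. The authors' deposited tables gave -0.23 ± 0.11 between the villi (DESeq2 adjusted p 0.0749) and 0.13 ± 0.11 for villus over crypt (DESeq2 adjusted p 0.392). Insig1, itself an SREBP target, had means of 115, 109 and 122 in that order and a wide error, with -0.17 ± 0.19 between the villi in the authors' deposited table (DESeq2 adjusted p 0.482). Insig2, which is under other control, had means of 194, 189 and 197. Between the villi it had -0.06 ± 0.08 in the authors' deposited table (DESeq2 adjusted p 0.526), with a 95% interval of -0.22 to 0.09. A difference over 1.17-fold toward labelled-DKO villus lies outside that interval for Insig2, whereas for Insig1 up to 1.46-fold lies within it. Srebf1 lies on chromosome 11 from 60012586 to 60036083, Insig1 on chromosome 5 from 28397952 to 28405202 and Insig2 on chromosome 1 from 123200930 to 123229166. Srebf1 has 4 transcripts with 3 starts and Insig2 has 5 with 3 starts, which the gene-level values do not separate. The windows of Srebf1 overlap those of Rai1, Mir6921 and Mir6922, which have no rows in the tables.

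**Figure D3:**
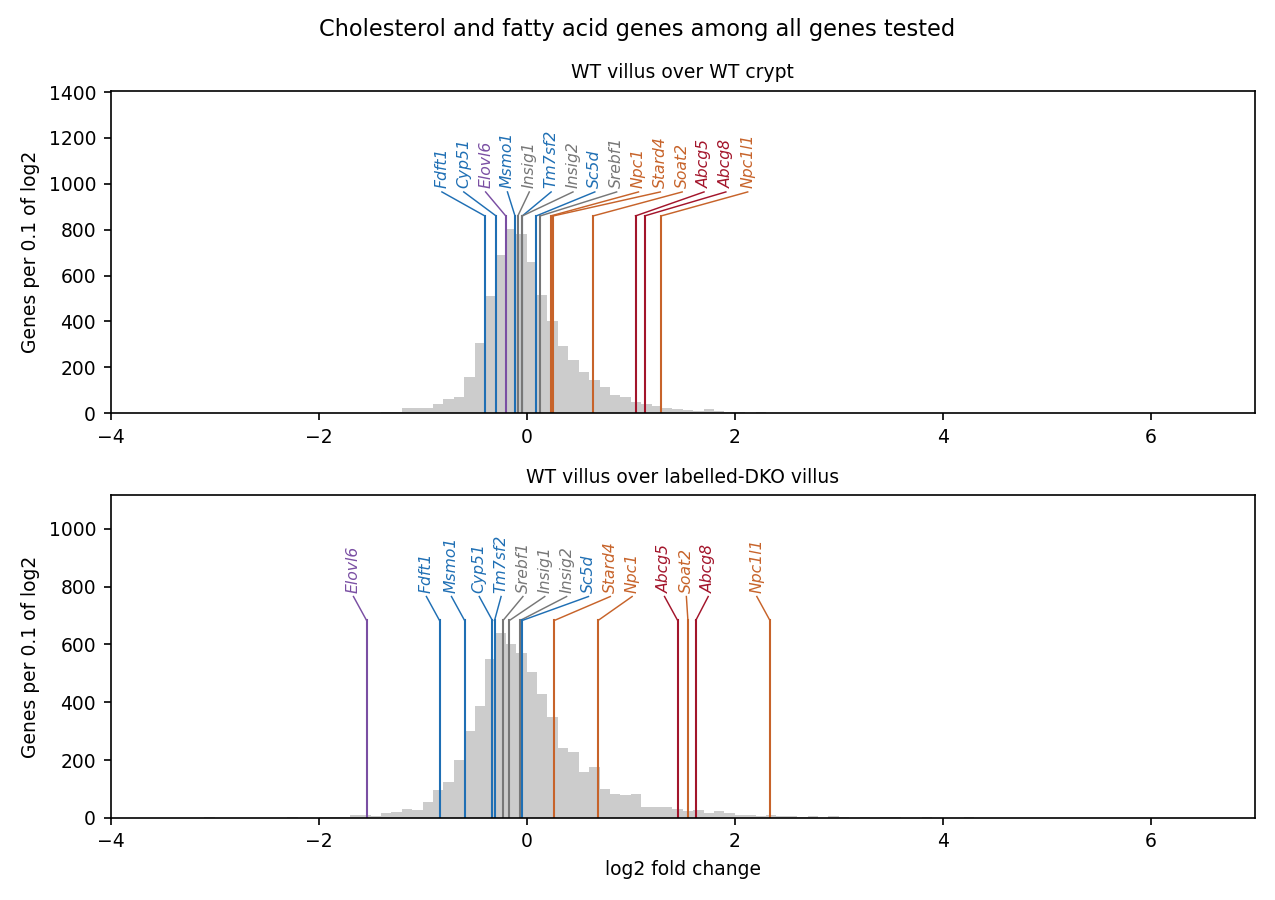
Number of genes per 0.1 of log2 fold change (grey bars) over all 6429 genes, for WT villus over crypt (top) and WT villus over labelled-DKO villus (bottom), with a coloured line and name at the value of each of the 15 genes. Sterol enzymes lie in the bulk of genes in the upper panel, and Elovl6 and Npc1l1 lie in opposite tails of the lower panel.

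To place labelled-DKO villus beside crypt, the difference of the 2 deposited changes was tested over all genes with the largest SE that independent libraries allow. Of the 15 genes, Elovl6 had more signal in labelled-DKO villus, and Npc1l1, Npc1 and Soat2 had more in WT crypt. Of all genes 13.6% passed, 6.41% toward labelled-DKO villus and 7.19% toward crypt. Elovl6 had a log2 change of labelled-DKO villus over crypt of 1.34 ± 0.29 (adjusted p 1.27e-04), or 2.53-fold. Npc1l1 had -1.05 ± 0.32 (adjusted p 0.0114), so its signal in labelled-DKO villus was below that in crypt and not only below that in WT villus. Soat2 had -0.91 ± 0.19 (adjusted p 7.29e-05) and Npc1 had -0.45 ± 0.09 (adjusted p 4.68e-06). Of the 14 enterocyte markers, 2 lay toward labelled-DKO villus and 2 toward crypt at the threshold, with a median of -0.40 over the 14.

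For Abcg5 and Abcg8 the values were -0.41 ± 0.16 and -0.49 ± 0.27, which were not called (adjusted p 0.0635 and 0.257). Abcg5 passed, at 0.0499, when only genes with a mean signal of at least 100 were tested. Fdft1 had 0.43 ± 0.21, Msmo1 0.48 ± 0.23 and Srebf1 0.36 ± 0.16, with adjusted p-values of 0.161, 0.171 and 0.125. Stard4, at -0.01 ± 0.16, had an interval of -0.32 to 0.30. The calls also depend on the SE. With an SE rebuilt from the group means in place of the largest possible one, 4 of the 15 genes were higher in labelled-DKO villus (Elovl6, Fdft1, Msmo1 and Srebf1) and 5 were higher in crypt (Npc1l1, Npc1, Soat2, Abcg5 and Abcg8). Calls over all 6429 genes rose as well. With the rebuilt SE 1005 were higher in labelled-DKO villus and 927 in crypt, against 412 and 462 with the largest SE.

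Genes of the same pathways outside the set were read from fixed lists. Of 25 other sterol and SREBP genes 10 had rows. Against crypt 1 of them passed, with more signal in crypt, in the authors' deposited table. Between the villi 3 lay toward labelled-DKO villus and 2 toward WT villus at the threshold in the authors' deposited table, and the list's median of -0.07 was close to that of all genes. The largest change toward labelled-DKO villus was that of Cyp27a1, a sterol hydroxylase of mitochondria, at -1.49 ± 0.24 in the authors' deposited table (DESeq2 adjusted p 8.54e-09). Erlin1, an endoplasmic reticulum protein that restrains SREBP, had 0.62 ± 0.10 and Nr1h3, which encodes a liver X receptor, had 0.47 ± 0.15 in the authors' deposited table, so both were higher in WT villus (DESeq2 adjusted p 1.11e-08 and 0.00450).

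Of 24 other genes of fatty acid synthesis 10 had rows. At the threshold, 1 lay toward villus and 2 toward crypt, and between the villi 3 lay toward WT and 2 toward labelled-DKO villus, in the authors' deposited tables. Those toward WT villus were Pklr, Slc25a1, the citrate carrier of mitochondria, and Mlxipl, which encodes the glucose-responsive factor ChREBP, and Acss1, an acetyl-CoA synthetase of mitochondria, lay toward labelled-DKO villus with Mid1ip1. Tecr, a reductase of fatty acid elongation, lay toward crypt with Fads3. Pklr, liver pyruvate kinase, led toward WT villus in both of the authors' deposited tables, at 0.82 ± 0.15 over crypt and 1.10 ± 0.15 over labelled-DKO villus. Fads3, of the desaturase family, led toward crypt at -0.87 ± 0.14, and Mid1ip1, which promotes acetyl-CoA carboxylase assembly, led toward labelled-DKO villus at -1.22 ± 0.29 in the authors' deposited tables. The list's median between the villi was 0.08.

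Of 25 fat absorption and chylomicron genes 22 had rows, of which 20 were higher in villus than crypt and 18 lay toward WT villus between the villi in the authors' deposited tables. The medians were 0.86 and 1.08, and Apoa4, a chylomicron apolipoprotein, led both at 2.11 ± 0.20 and 3.87 ± 0.22 in the authors' deposited tables. Dgat2, which makes triglyceride, and Plin2, a coat protein of lipid droplets, were the 2 genes of that list with more signal in labelled-DKO villus, at -1.54 ± 0.53 and -1.09 ± 0.17 in the authors' deposited table. Of 25 fatty acid oxidation genes 19 had rows, and between the villi 5 lay toward WT and 8 toward labelled-DKO villus in the authors' deposited table. Acaa1a, a peroxisomal thiolase, at 1.12 ± 0.14, and Cpt1a, the gate of mitochondrial import, at -1.53 ± 0.08, were its extremes in the authors' deposited table. The median of the oxidation list was -0.05.

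**Figure D4:**
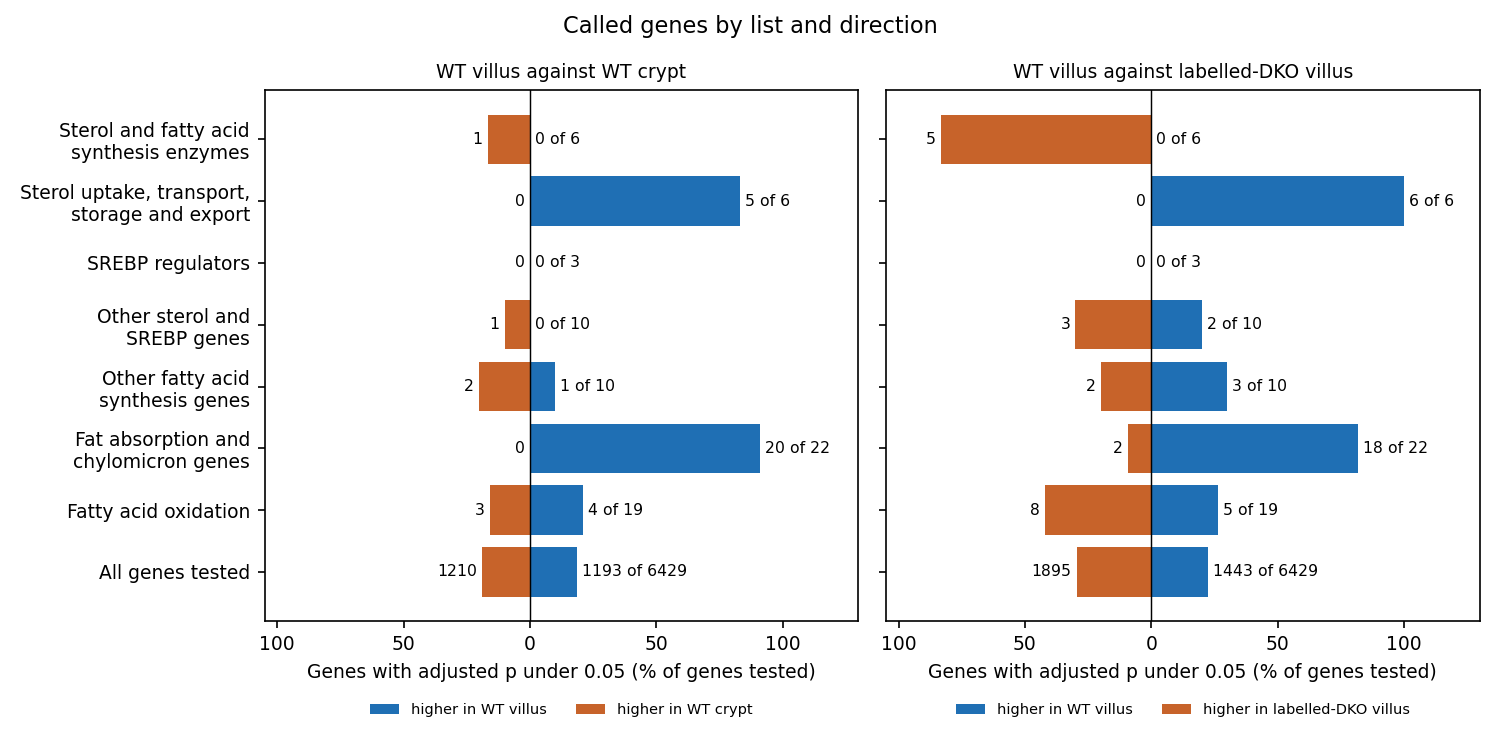
Percent of tested genes with an adjusted p under 0.05 (x axis, higher in WT villus to the right and higher in the other group to the left) for 7 gene lists and all genes (y axis); numbers at the bars count the genes. Between the villi 6 of 6 genes of sterol uptake, transport, storage and export lie to the right and 5 of 6 synthesis enzymes to the left.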

How the data were processed

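Pol II ChIP-seq libraries of 3 groups were compared through 2 tables that the authors deposited in the DESeq2 results format. Per the submitters' processing notes, reads were aligned with Bowtie2 2.2.6 to mm9 and analysed with DESeq2 1.36.0. For 6429 genes the authors deposited the mean signal (counts divided by size factors), the log2 fold change and its standard error, a Wald score, and p-values with Benjamini-Hochberg adjusted p-values. The window counted and the libraries fitted are not given in the sources used here. Depth per library is unknown from these tables. The authors' window tables were made with featureCounts 2.0.3 per the file headers. Their 18 count columns have no names and were not used, so the planned edgeR fits were not run. Window positions were used.

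The adjusted p-values were recomputed over all 6429 genes and differed by at most 3.76e-07. Group means, the contrast of labelled-DKO villus with crypt (difference of the 2 changes, SE as the root of summed squares, normal test, Benjamini-Hochberg) and the alternatives were computed with Python 3.11.15, numpy 2.4.6 and scipy 1.17.1. The contrast was tested on simulated data. The 95% intervals are the change ± the normal quantile times its SE. Transcripts were matched to symbols through RefSeq (GRCm38.p6), which placed 6394 of the 6429 genes. The members and lists were chosen with earlier results of these data known, so no p was adjusted over a list. All 15 members were named, the genes called beyond 0.5 and the regulators in full, the extreme called genes of each other list, and markers as counts. Genes overlapping a member were also named. Nr1h3, Plin2, Mlxipl, Slc25a1, Acss1 and Tecr were named after their values were seen. Some genes of the other lists are counted but not reported here by name.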

Additional observations from a re-analysis of the deposited data

How the results depend on the processing

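No paired analysis was possible because values per library would have to come from count columns that carry no names. For the same reason leaving out a replicate, edgeR fits, other normalizations and filters on low counts were not run, so no result is checked against the loss of 1 library. Of 261 recomputed values of single genes, 222 stayed on their side of the threshold, 30 no longer passed, 9 newly passed, and no value called before or after changed sign. Only centring alters the change itself, so under the other settings no sign could differ. Genes not called could not newly pass under the stricter limits either, so part of the 222 was fixed in advance. Genes higher in WT villus than crypt numbered 5, against 3 with a log2 change beyond 1, 3 against changes up to 0.5 and 2 of 8 genes without an overlap. Genes higher in crypt numbered 1 (Fdft1), against 0 under each of these settings and at an adjusted p under 0.01, and 2 with a mean signal of at least 100. Genes higher in WT than labelled-DKO villus numbered 6, against 3 of 8 without an overlap. Those higher in labelled-DKO villus numbered 5, against 3 at an adjusted p under 0.01, 1 (Elovl6) beyond 1 and against changes up to 0.5, 3 after centring and 2 of 8 without an overlap. For labelled-DKO villus over crypt the count was 1, against 0 for changes up to 0.5, 0 without an overlap and 4 with the rebuilt SE. For crypt over labelled-DKO villus it was 3, against 1 beyond 1, 0 for changes up to 0.5 and 5 with the rebuilt SE. Over all genes, 2403 passed between villus and crypt, against 285 beyond 1, 252 against changes up to 0.5 and 1462 without an overlap. Between the villi it was 3338, against 559, 637 and 2043, and for labelled-DKO villus with crypt 874, against 558 at an adjusted p under 0.01, 223, 90 and, with the rebuilt SE, 1932. Stricter limits and fewer genes lower such counts by construction. Centring moved 3 medians between the villi across 0, those of the 15 genes to 0.017, of other sterol genes to 0.0091 and of fatty acid oxidation to 0.033. With 1 mismatch allowed, TCACNCCAC was in 4 of 11 genes, or 4 of their 16 promoters, and in 20.7% of all promoters.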

Other observations

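In the deposited gene body windows, genes on the 2 strands were treated differently. On the plus strand all 19858 windows began 350 bp after the start of the transcript. On the minus strand all 21190 windows reached 350 bp before the start, so that they contain the promoter. Among genes with 1 transcript the median window was 850 bp shorter than the RefSeq gene on the plus strand and 850 bp longer on the minus strand. Within 2 bp of these values lay 4070 of 6506 and 5153 of 7731 genes. Of the 15 genes 11 lie on the minus strand. Whether the comparison tables rest on these windows is not given in the sources used here.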
